A study of Mus musculus with 24 samples.

Results

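The 6 microRNAs mmu-miR-22-3p, mmu-miR-33-5p, mmu-miR-103-3p, mmu-miR-107-3p, mmu-miR-378a-3p and mmu-miR-802-5p, known as regulators of lipid, glucose and insulin metabolism in the liver, were followed through RNA degradation. They were chosen by name among all mouse miRNAs on the array, of which 879 were detected on at least 1 array and 1002 on none. The data came from 24 Agilent miRNA arrays of a single colour, hybridised with RNA from the livers of 3 male mice numbered 7, 9 and 10, with 1 array of each mouse in each of 8 groups. In 4 groups total RNA including small RNAs was isolated with the miRNeasy kit from tissue stored for 0 h or for 96 h at room temperature, each with and without DNase digestion. In the other 4 groups RNA largely lacking small RNAs was isolated from tissue stored for 0 h with the RNeasy kit and DNase (depleted RNA). It was hybridised either directly or after incubation with 0 U, 0.026 U or 0.67 U RNase. Per the study's methods, incubated RNA was then isolated again with the miRNeasy kit, which keeps small fragments. The study's methods name a C57BL6 Il1a knock-out strain for its first group of mice and do not restate it for these 3, whose age was not given in the sources used here. Pieces of 1 liver are not separate animals, so each group held 3 replicates, which were the 3 mice.

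A miRNA is a short RNA that guides an Argonaute protein to messenger RNAs matching its seed, the stretch near its 5′ end, and lowers their output. miR-33 is encoded within Srebf2, the gene of a transcription factor of cholesterol synthesis, and represses the cholesterol exporter Abca1. miR-103 and miR-107 are encoded within the pantothenate kinase genes, whose products make coenzyme A, and are known to lower insulin sensitivity in liver and fat. miR-378a is encoded within Ppargc1b, a coactivator of mitochondrial genes, and represses carnitine acetyltransferase and the Mediator subunit Med13. miR-802 is raised in obese liver, and miR-22 is an abundant liver miRNA linked to fatty acid and glucose metabolism.

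The relatives of miR-378a-3p differ in their seeds. A single base separates miR-103-3p from miR-107-3p, the pair that lost different shares of their signal during storage. The mature sequences therefore follow. They were taken from RefSeq on the GRCm38.p6 build, in which 5 of the 6 members were matched, and are printed 5′ to 3′ with the seed (bases 2 to 8) in capitals.
miR-22-3p: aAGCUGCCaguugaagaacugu
miR-33-5p: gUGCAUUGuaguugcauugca
miR-103-3p: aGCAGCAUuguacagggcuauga
miR-107-3p: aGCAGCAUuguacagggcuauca
miR-802-5p: uCAGUAACaaagauucauccuu
miR-378b: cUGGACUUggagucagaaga
miR-378c: aCUGGACUuggagucagaagc
miR-378d: aCUGGCCUuggagucagaaggu

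miR-103-3p and miR-107-3p shared their seed and 22 of 23 bases, and the difference was G22C, counted from 1 at the 5′ end of miR-103-3p. Among the array's miRNAs with a RefSeq sequence, no other miRNA carried that seed, and none shared the seeds of miR-22-3p, miR-33-5p or miR-802-5p. miR-378b and miR-378c had a run of 19 bases in common that begins 1 base later in miR-378c, so their seeds differed. The genes lay on both strands of 5 chromosomes. miR-22-3p was at chr11:75463772-75463793 (plus strand) within Mir22hg, miR-33-5p at chr15:82198127-82198147 (plus) within Srebf2, and miR-107-3p at chr19:34820700-34820722 (minus) within Pank1. miR-103-3p was encoded at chr2:131288103-131288125 (plus) within Pank2 and at chr11:35782447-35782469 (plus) within Pank3, and the array cannot tell the 2 copies apart. miR-802-5p was at chr16:93369737-93369758 (plus), outside the span of any other RefSeq gene.

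The RNA integrity number (RIN, up to 10 for intact RNA) was 8.8 to 9 at 0 h, 2.3 to 2.5 at 96 h, 9.2 to 9.4 in depleted RNA, 9 to 9.2 after mock incubation, 6 to 7 at 0.026 U and 2.4 to 2.9 at 0.67 U. The summed signal of detected miRNAs was 55237 to 163493 intensity units at 0 h, 187378 to 362324 at 96 h, 7125 to 10043 in depleted RNA without RNase and 36325 to 177642 with RNase. All 4 hepatocyte marker miRNAs were detected on all arrays at 0 h and 96 h, with a summed signal of 7708 to 15241 at 0 h and 3554 to 6773 at 96 h, and both neuronal markers were detected on no array of any group. The summed signal of erythroid markers was 224 to 571 at 0 h and 148 to 205 at 96 h, and that of endothelial markers 289 to 604 and 55.7 to 131. Of the 3 erythroid markers, miR-144-5p was detected in no group and miR-144-3p on no 96 h array with DNase. Markers of skeletal muscle and heart went the other way: none of 3 was detected at 0 h (summed signal -1.3 to 0.182), and at 96 h the sum was 9.09 to 31.7 with 1 or 2 of the 3 detected on all arrays of a group. Immune markers summed to 46 to 186 at 0 h and 20.5 to 76.2 at 96 h, and the list was mixed. Its miR-155-5p was detected at 96 h but not at 0 h, while miR-142a-5p and miR-150-5p were not detected at 96 h. Markers of smooth muscle and stroma summed to 15.9 to 52.6 at 0 h and 3.77 to 31.2 at 96 h. The part of these markers in the results was not tested. Whether fewer cells of a type or less RNA per cell lay behind a signal cannot be told apart in whole tissue. For mouse 9 the labels of the 2 RNase arrays contradict each other on the dose, and the arrays were grouped by the dose their RIN follows. The summed signal went the other way, with 177642 at 0.026 U and 70313 at 0.67 U. It was 37604 and 83451 in mouse 7, and 36325 and 168514 in mouse 10. Which labels are right was not tested.

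Storage was tested as 96 h against 0 h in each DNase state. Levels are given as intensity, which is background-subtracted and not scaled between arrays, or as glog2, the variance-stabilised log2 scale on which groups were compared. Of the 6 members, 5 were detected on at least 5 of the 24 arrays and were tested among 631 miRNAs, and miR-33-5p, detected on 4, was not. A miRNA was called at an adjusted p (limma, Benjamini-Hochberg over the 631) under 0.05 with a change of at least 1, a 2-fold change. With DNase, 4 of the 5 tested members fell during storage (miR-22-3p, miR-103-3p, miR-107-3p and miR-802-5p), where 21.6% of the 631 miRNAs were called lower and 60.4% higher. Without DNase all 5 fell, where 23.0% were called lower and 60.5% higher. Of these members, miR-802-5p passed the filter only with its 0 h arrays, which favours a fall. The median change of the tested members was -2.49 with DNase and -2.47 without, beside 2.47 and 2.16 over all 631. Those medians depend on the scaling: over 8 scalings the median of all 631 ran from 0.15 to 3.46 with DNase, and under each of the 8 all 5 members lay below it in both DNase states.

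**Figure D1:**
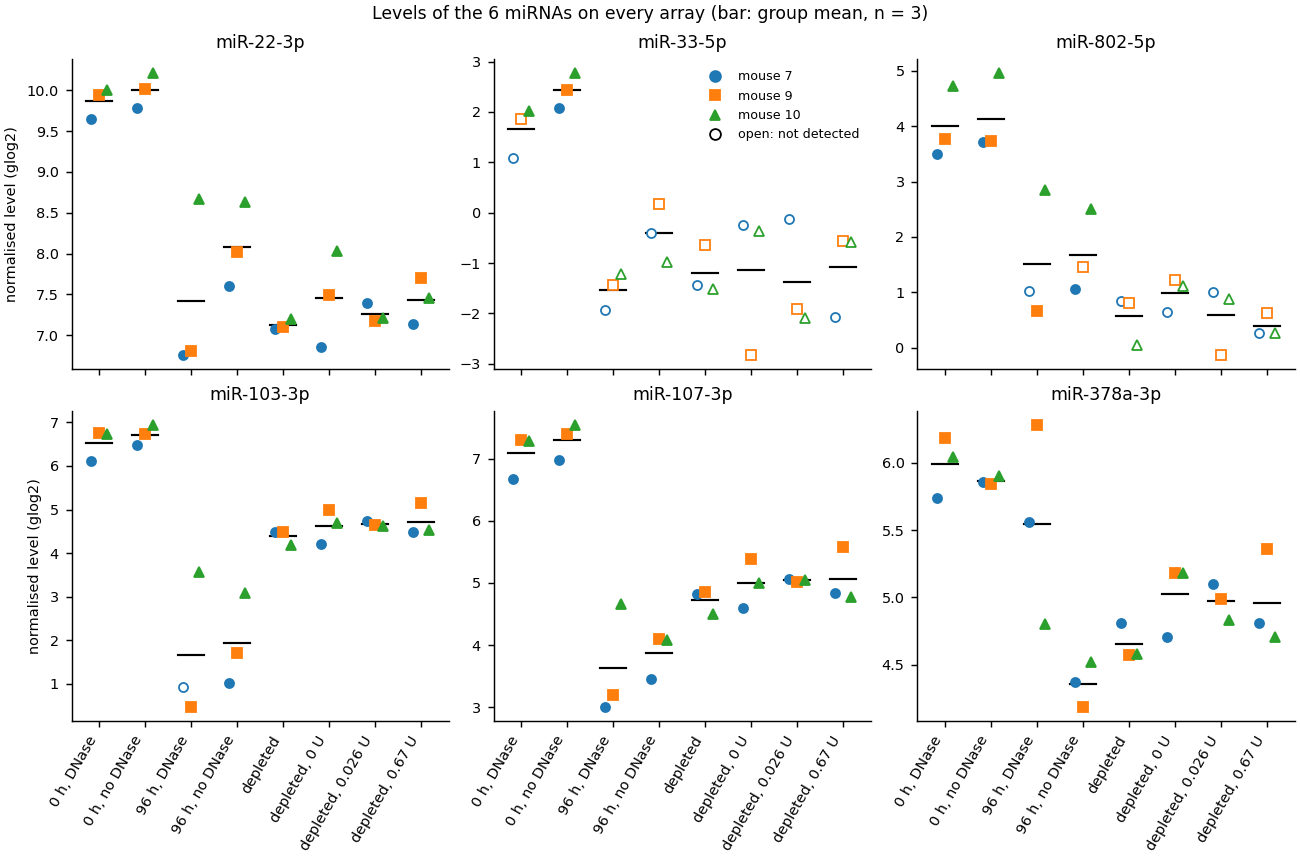
Normalised level (glog2, y axis) of each of the 6 miRNAs on every array, by group (x axis), with 1 symbol per mouse, open where the miRNA was not detected and a bar at the group mean (n = 3). The groups at 0 h stand above the other 6 groups for miR-22-3p, miR-33-5p, miR-103-3p, miR-107-3p and miR-802-5p, while miR-378a-3p at 96 h with DNase overlaps its 0 h levels.

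mmu-miR-103-3p and mmu-miR-107-3p, which the insulin literature treats as a pair, fell by the largest amounts of the tested members under 7 of the 8 scalings. The exception was normexp with quantile normalisation, where miR-22-3p fell most (-3.34 with DNase, beside -2.08 for miR-107-3p). With DNase, miR-103-3p gave intensities of 51.4, 76.3 and 85.9 in mice 7, 9 and 10 at 0 h and 3.97, 3.18 and 23.4 at 96 h, and the 96 h array of mouse 7 was flagged not detected. The groups did not overlap, and mouse 10 kept the highest signal. The change was -4.87 ± 0.57 glog2 (SE, n = 3 per group, limma adjusted p = 1.34e-07), and only 7 of the 631 miRNAs had a lower change. Without DNase the intensities were 67.1, 76.4 and 98.5 at 0 h and 3.62, 5.66 and 22.8 at 96 h. These values gave a change of -4.78 ± 0.57 (SE, limma adjusted p = 2.01e-07), and each of the 3 mice showed the fall. The scanner's total signal leaves out a probe that was not detected, which on 3 of the 23 arrays that detected miR-103-3p, all at 96 h (3.18, 3.62 and 5.66 above), left 1 of its 2 probes. With both probes summed on every array these 3 were 4.67, 5.93 and 8.02, and the changes were -4.73 ± 0.51 with DNase and -4.45 ± 0.51 without.

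mmu-miR-107-3p gave intensities of 75.5, 112 and 126 at 0 h and 21.5, 28.7 and 51.4 at 96 h with DNase, again with no overlap and with mouse 10 highest. Its change was -3.46 ± 0.36 glog2 (SE, limma adjusted p = 3.23e-08), and 49 miRNAs of the 631 had a lower one. Without DNase it read 95.1, 122 and 150 at 0 h and 25, 35.8 and 46.6 at 96 h, a change of -3.42 ± 0.36 (SE, limma adjusted p = 4.19e-08). The fall of miR-107-3p was smaller than that of miR-103-3p in every mouse. The difference between the 2 changes with DNase was 1.53 glog2 in mouse 7, 2.18 in mouse 9 and 0.54 in mouse 10, and without DNase it was 1.93, 1.74 and 0.39. With both probes summed on every array it was 1.52, 1.77 and 0.54 with DNase and 1.37, 1.32 and 0.39 without. An exact sign-flip test over 3 mice cannot go below p = 0.25 (two-sided). The mean difference with DNase was 1.42 ± 0.82 (SD, n = 3) and ran from 0.99 to 1.70 under the other scalings of the total signals, was 1.28 ± 0.65 with both probes summed, and it was -0.08 with normexp background correction of the spots followed by quantile normalisation.

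Unscaled signal, summed over both probes on every array, showed the same order without reference to other miRNAs. At 96 h with DNase, miR-103-3p kept 7.71%, 6.12% and 27.2% of the 0 h signal of mice 7, 9 and 10, and miR-107-3p kept 28.5%, 25.7% and 40.7%. Without DNase miR-103-3p kept 14.2% ± 7.84 (SD, n = 3) and miR-107-3p 29% ± 2.48. In depleted RNA, which went through no storage, the 2 kept like shares, 21.2% ± 7.12 and 18.5% ± 6.08. With scaling on the spiked-in control RNAs the shares at 96 h with DNase were 5.39%, 4.57% and 20.2% for miR-103-3p and 19.9%, 19.2% and 30.3% for miR-107-3p.

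**Figure D2:**
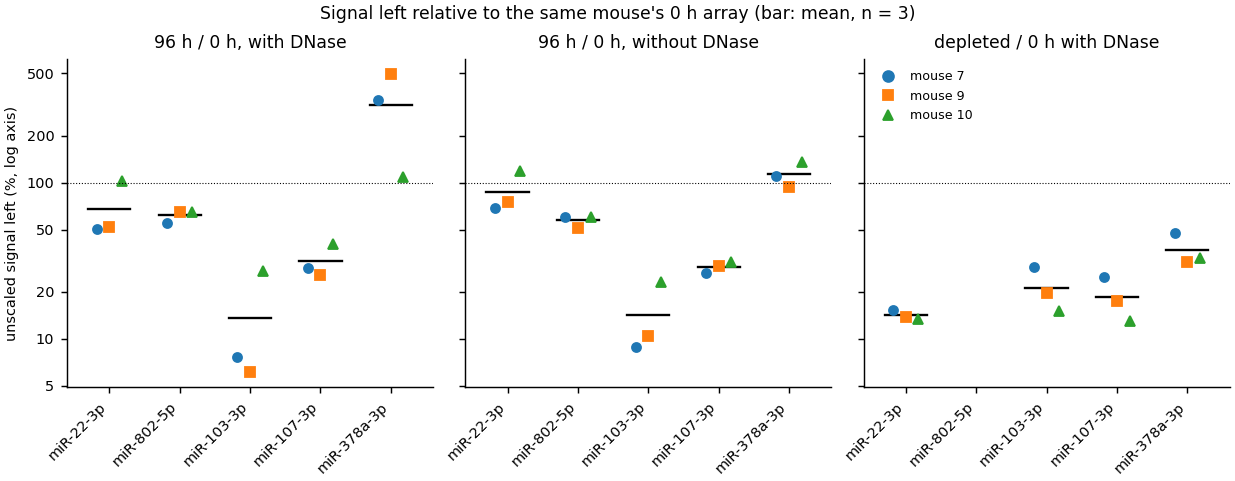
Unscaled signal of 5 miRNAs (x axis), summed over both probes, as a percentage of the signal on the same mouse's 0 h array (y axis, log scale), 1 symbol per mouse and a bar at the mean (n = 3). After 96 h with DNase miR-103-3p kept 6.12% to 27.2%, miR-107-3p 25.7% to 40.7% and miR-378a-3p 108% to 496%. miR-33-5p, and miR-802-5p in depleted RNA, have no point because no array of a group detected them.

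Each member was read by 2 probes of 15 spots each, and no spot of a member was saturated on any array. For miR-107-3p the probe that was brighter at 0 h kept 36.2% ± 8.1 (SD, n = 3) at 96 h with DNase and the dimmer one 23% ± 7.72, and the brighter one kept more in 3 of 3 mice. In depleted RNA the same 2 probes kept 18.8% ± 5.96 and 18% ± 6.3. The ratio of the brighter to the dimmer probe was 1.85, 1.88 and 1.92 at 0 h with DNase, and at 96 h it was 3.19, 3.17 and 2.73, with no overlap. The ratio also moved with no overlap in other members at 96 h with DNase: from 1.52, 1.55 and 1.57 to 1.77, 2.15 and 1.71 for miR-103-3p, from 1.72, 1.66 and 1.69 to 1.88, 1.93 and 1.78 for miR-22-3p, and, downwards, from 1.24, 1.3 and 1.36 to 0.909, 0.951 and 0.962 for miR-378a-3p. For miR-103-3p the probes kept 14.4% ± 11.9 and 12.6% ± 11.4, and the brighter one kept more in 3 of 3 mice. These ratios were given no test.

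**Figure D3:**
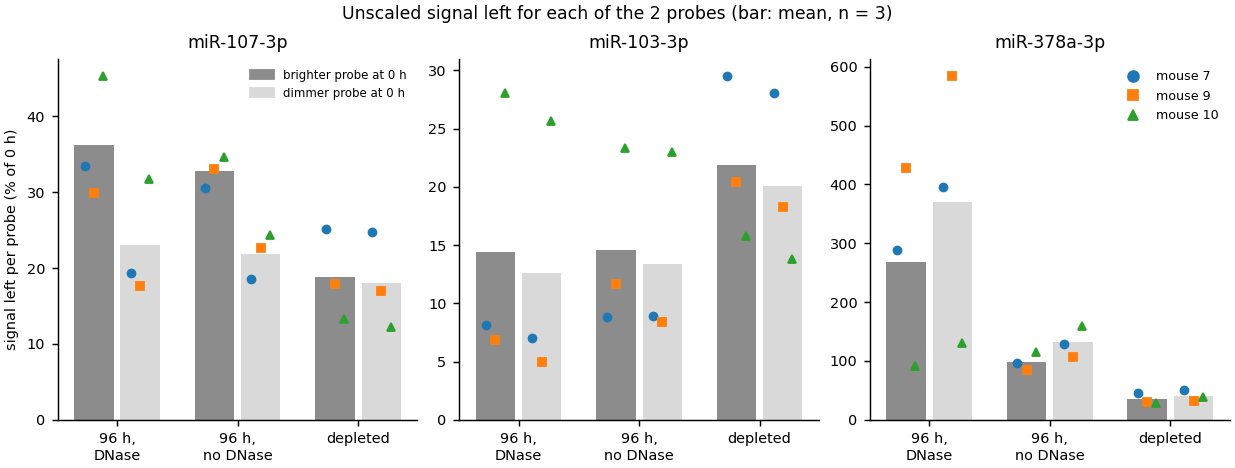
Unscaled signal left (y axis, percent of the same mouse's 0 h array; each panel has its own scale) for each of the 2 probes of miR-107-3p, miR-103-3p and miR-378a-3p, with bars at the mean of 3 mice and 1 symbol per mouse. At 96 h with DNase the brighter probe kept the larger share for miR-107-3p (36.2% and 23%) and miR-103-3p (14.4% and 12.6%) and the smaller share for miR-378a-3p (269% and 370%).

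mmu-miR-22-3p fell on the normalised scale while much of its signal remained. With DNase it gave intensities of 601, 698 and 836 at 0 h and 306, 365 and 850 at 96 h. Mice 7 and 9 lay below every 0 h array and mouse 10 lay above them, so the unscaled groups overlapped. The change on the glog2 scale was -2.45 ± 0.41 (SE, limma adjusted p = 1.43e-05), with -2.90, -3.13 and -1.33 in mice 7, 9 and 10. Without DNase the intensities were 675, 750 and 954 at 0 h and 466, 563 and 1122 at 96 h, and the change was -1.92 ± 0.41 (SE, limma adjusted p = 0.000223). The unscaled share left was 68.3% ± 29 (SD, n = 3) with DNase and 87.2% ± 26.4 without. With no normalisation the change was -0.63 (adjusted p = 0.139) with DNase and -0.24 (adjusted p = 0.567) without, and in neither was it called. With spike-in scaling the call was lost without DNase alone, at -0.64 (adjusted p = 0.0794). Its other arm, miR-22-5p, gave 12.5, 16.8 and 21.3 at 0 h with DNase and 0.862 (not detected), 1.07 (not detected) and 11.3 at 96 h.

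mmu-miR-802-5p gave intensities of 7.85, 9.22 and 20.9 at 0 h and 4.31 (not detected), 3.83 and 13.6 at 96 h with DNase. Mouse 10 was highest in both groups, and at 96 h it exceeded the 0 h values of the other 2 mice. The normalised levels did not overlap, and the change was -2.49 ± 0.52 glog2 (SE). Without DNase it read 9.29, 8.97 and 24.4 at 0 h and 3.75, 4.58 (not detected) and 14.7 at 96 h, a change of -2.47 ± 0.52 (SE). It was detected on all 3 arrays of each 0 h group and on 2 of 3 in each 96 h group. It thus passed the filter only with its 0 h arrays, which favours a fall, and these calls are given no p. On 2 arrays (3.83 and 3.75 above) the total signal counted 1 of the 2 probes. Summed over both probes, 61.7% ± 5.85 (SD, n = 3) of the unscaled signal was left with DNase and 57.3% ± 5.42 without, and the changes were -2.31 ± 0.48 in both states. With no normalisation the change with DNase was -0.92 (adjusted p = 0.0901), and without DNase it was not called either (adjusted p = 0.0666). With normexp and quantile normalisation the changes were -0.82 and -0.81, less than 2-fold.

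mmu-miR-33-5p lay near the detection limit. It gave 0.942 (not detected), 2.07 (not detected) and 2.43 at 0 h with DNase and 2.4, 3.16 and 4.83, all detected, without DNase, and on each of the 4 arrays that detected it 1 of its 2 probes was counted. No array at 96 h detected it, and none of the 12 arrays of depleted RNA did. The lowest signal of a detected miRNA on each 96 h array served as the floor. Without DNase its mean of 2.43 glog2 at 0 h stood against a floor of 0.23, so it was at least 4.58-fold higher. With DNase 1 of 3 arrays at 0 h detected it, so its mean of 1.65, against a floor of 0.13, gives no bound. The 4.58-fold is a bound with no test. Like the bounds given below, it was computed on the glog2 scale only and depends on its scaling. With DNase, an intensity of 3.18 at 96 h (miR-103-3p, mouse 9) stood at 0.48 glog2. The 0.942 of miR-33-5p at 0 h (mouse 7) stood at 1.08, so unscaled signal need not give such a bound.

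mmu-miR-378a-3p was called in 1 DNase state only, and the direction of its change with DNase depended on the scaling. The test of a difference between the DNase states, given below, did not pass. With DNase it gave intensities of 39.4, 51.1 and 53 in mice 7, 9 and 10 at 0 h and 133, 253 and 57 at 96 h, so unscaled signal was higher at 96 h in 3 of 3 mice. Without DNase it read 43.7, 40.9 and 47.4 at 0 h and 48.5, 38.4 and 63.8 at 96 h, which overlapped. On the glog2 scale the change with DNase was -0.44 ± 0.29 (SE, 95% interval -1.03 to 0.16, limma adjusted p = 0.156), and without DNase it was -1.50 ± 0.29 (SE, limma adjusted p = 6.21e-05). With no normalisation the change with DNase was 1.39 and called higher, and it was called lower at -1.99 when arrays were scaled to their overall 75th percentile, at -1.33 with that percentile over miRNAs present on every array, at -2.03 with quantile normalisation and at -1.03 with normexp and quantile normalisation. Without DNase the call was lost with spike-in scaling (-0.24) and with no normalisation (0.16). Both of its probes rose at 96 h with DNase in mice 7 and 9, to 289% and 428% of 0 h for the brighter and 396% and 584% for the dimmer. In mouse 10 they stood at 91.6% and 130%.

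No member was called when DNase was omitted at 0 h. The 5 tested members differed by -0.12 to 0.22 glog2 between RNA without and with DNase. The 95% interval for miR-107-3p ran from -0.53 to 0.96 and that for miR-802-5p from -0.94 to 1.22, and the widest, that of miR-103-3p, reached 1.36. Of the 631 miRNAs, 0 (0%) were called by limma, 30 had an unadjusted p under 0.05, and the exact Wilcoxon-Mann-Whitney test, whose smallest p for 3 against 3 arrays is 0.1, called 0. At 96 h miR-378a-3p alone of the 5 was called, lower without DNase by -1.19 ± 0.29 (SE, limma adjusted p = 0.00926), where 4.60% of miRNAs were called lower. The differences were -1.19, -2.09 and -0.28 in mice 7, 9 and 10, all in 1 direction. The call was lost without mouse 7 (adjusted p = 0.336) and without mouse 9 (adjusted p = 0.439), and in a fit of the 2 compared groups alone (adjusted p = 0.156). The test of whether storage acted differently in the 2 DNase states gave -1.07 ± 0.40 for miR-378a-3p (SE, limma adjusted p = 0.208), which did not pass, and called 1.11% of the 631 and 0 of the 5 members.

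Opposite arms and the miR-378 relatives were read as well, from a list of 10 names of which 9 were on the array. Of these, 5 were tested and all 5 were called lower in both DNase states. Over all 631, 21.6% were called lower with DNase and 23.0% without. The changes of the 3 relatives were -2.75 to -1.23 with DNase and -3.17 to -1.63 without. The arms miR-33-3p, miR-103-1-5p, miR-107-5p and miR-802-3p were detected on no array. miR-378a-5p gave 4.86, 6.34 and 6.14 at 0 h with DNase and was not detected at 96 h in either state. On the glog2 scale it was at least 6.37-fold lower with DNase, while unscaled signal in mouse 10 went from 6.14 to 3.63. It was detected on 7 arrays, among them all 3 of each 0 h group. It thus passed the filter through 0 h, which favours a fall, and its call is given no p. miR-22-5p was detected on 1 of 3 arrays at 96 h in each state, and miR-378c on 2 of 3 with DNase and 1 of 3 without. Both also passed the filter through their 0 h arrays. Among the relatives, miR-378b changed by -2.75 ± 0.33 and miR-378d by -2.01 ± 0.29. In mouse 9 at 96 h with DNase miR-378d gave 72.1 and miR-378c 9.66, above the 48.9 and 4.27 of its 0 h array. miR-378c also rose in mouse 7, from 2.48 to 4.05, and fell in mouse 10, from 4.07 to 2.75 (not detected). Mouse 9 held the highest unscaled signal of miR-378a-3p, miR-378b, miR-378c and miR-378d among the 96 h arrays with DNase. Its summed signal of 362324 was also the highest of the 24.

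**Figure D4:**
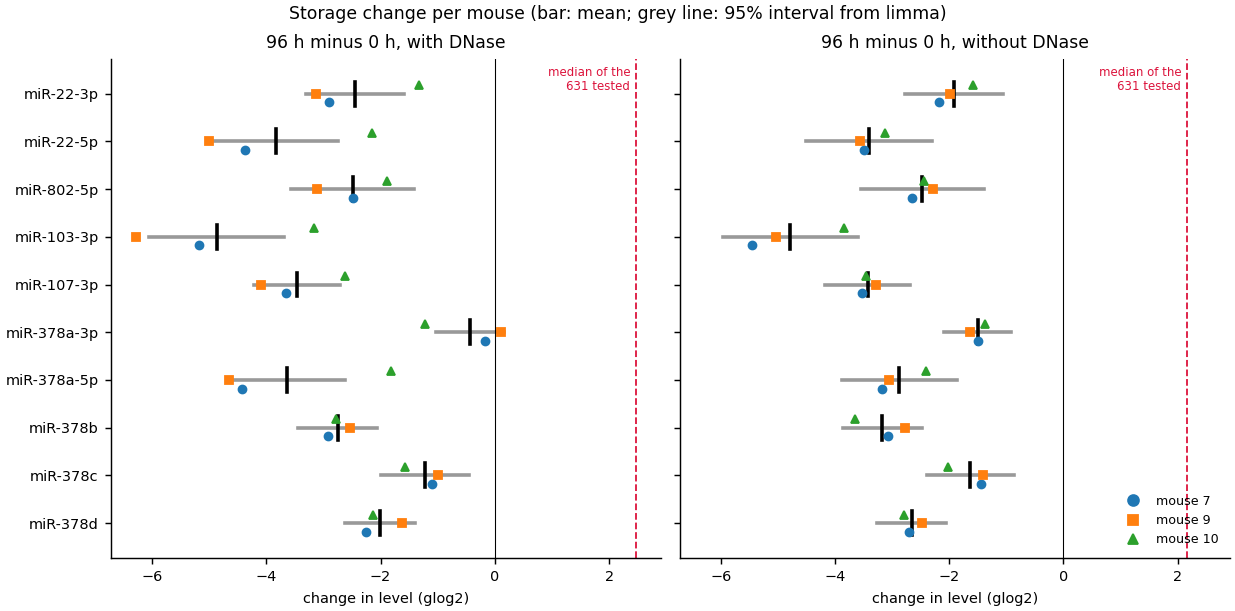
Change in level from 0 h to 96 h (x axis, glog2) for 5 tested members, the other arms of miR-22 and miR-378a, and 3 miR-378 relatives (y axis), with and without DNase. Symbols are mice, the bar is the mean and the grey line its 95% interval from limma; the dashed line is the median of the 631 tested miRNAs (2.47 with DNase and 2.16 without), and every mean lies below 0. The points of miR-378a-5p, detected on no 96 h array, and of miR-22-5p, detected on 1 of 3, rest on signals at background.

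Depleted RNA tells how much of each signal stays when small RNAs are largely removed. All 5 tested members were lower in depleted RNA than in total RNA at 0 h with DNase, where 24.4% of the 631 were called lower and the median change was -0.17. miR-802-5p gave -0.257 to 0.596 intensity units against 7.85 to 20.9 and was detected on none of the 12 arrays of depleted RNA. Against the same kind of floor, 1.36 glog2 in depleted RNA, it was at least 6.23-fold lower. It passed the filter through arrays of total RNA alone, which favours a fall, and its call is given no p. miR-22-3p gave 92.8, 96.2 and 112, which is 15.4%, 13.8% and 13.4% of the 0 h signal, and changed by -2.74 ± 0.41 (SE, limma adjusted p = 1.58e-05). miR-107-3p changed by -2.36 ± 0.36 and miR-103-3p by -2.15 ± 0.57 (SE, limma adjusted p = 1.77e-05 and 0.00478). miR-378a-3p kept the most, 47.6%, 31.3% and 32.8%, with a change of -1.33 ± 0.29 (SE, limma adjusted p = 0.000779). The call for miR-103-3p was lost without mouse 9 (-2.09, adjusted p = 0.0672), and the calls rested on the scaling. With the 75th percentile over miRNAs present on every array, quantile normalisation or normexp the changes of miR-22-3p, miR-103-3p and miR-107-3p shrank to between -0.57 and -0.04 and were not called, and miR-378a-3p turned to 0.80, 0.49 and 0.26, also not called. miR-802-5p lost its call with normexp alone, at -0.89.

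Stored total RNA was also set against depleted RNA, a comparison that shares its arrays with both tests above. miR-103-3p was lower at 96 h with DNase than in depleted RNA, with a change of -2.72 ± 0.57 (SE, limma adjusted p = 0.000196), and so was miR-107-3p, with -1.10 ± 0.36 (SE, limma adjusted p = 0.00866). These were 2 of 5 members, where 7.77% of the 631 were called lower. In mouse 10 the difference was -0.61 for miR-103-3p and 0.16 for miR-107-3p, whereas mouse 7 gave -3.55 and -1.81, and mouse 9 was also lower for both. The call for miR-107-3p was lost without mouse 7 (adjusted p = 0.177) and without mouse 9 (adjusted p = 0.148), and in a fit of the compared groups alone (adjusted p = 0.078), and its direction turned with spike-in scaling (0.07) and with no normalisation (0.80). The call for miR-103-3p was lost with no normalisation (-1.09, adjusted p = 0.0942). miR-22-3p (0.29 ± 0.41), miR-378a-3p (0.90 ± 0.29) and miR-802-5p (0.94 ± 0.52) were not called, and the first 2 took either direction, both called, under other scalings. miR-378a-3p was called higher without mouse 10 (1.23, adjusted p = 0.00321). miR-802-5p, undetected in depleted RNA, was called higher with both probes summed on every array (adjusted p = 0.0426), while its bound was at least 1.11-fold.

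No member was called after RNase treatment of depleted RNA on the glog2 scale, while many other miRNAs rose. Only 4 members could be compared here, since miR-802-5p and miR-33-5p were detected on no array of depleted RNA. Mock incubation at 0 U, which included the second isolation, called 1.74% of the 631 and none of the 4, whose changes were 0.25 to 0.37. With 0.026 U, 36.8% were called and none of the 4 (-0.20 to 0.05), and with 0.67 U 45.3% and none of the 4 (-0.07 to 0.10). For both doses together 44.7% of miRNAs were called, all of them higher, and the 4 members changed by -0.12 to 0.07, beside a median of 0.69 over all 631. With no detection filter the median over all miRNAs on the array was -0.16. None of the 4 had an unadjusted limma p under 0.05. The exact Wilcoxon-Mann-Whitney test could call no miRNA here, its smallest adjusted p being 0.0573 for both doses. miR-22-3p gave intensities of 78.3, 93.9 and 146 in mice 7, 9 and 10 at 0 U, 112, 146 and 92 at 0.026 U, and 108, 131 and 191 at 0.67 U. miR-103-3p gave 11.7, 16.1 and 13.8 at 0 U and 16.6, 22.1 and 24.1 at 0.67 U. miR-378a-3p gave 16.9, 18.4 and 19.8 at 0 U and 20.9, 25.4 and 27.6 at 0.67 U. miR-107-3p gave 15.7, 21.2 and 17.4 at 0 U and 21.2, 29.5 and 28.9 at 0.67 U. Unscaled signals of all 4 were thus higher at 0.67 U in 3 of 3 mice. Scalings that bring the arrays' distributions together changed these results: with quantile normalisation miR-22-3p changed by -2.10, miR-378a-3p by -1.75, miR-107-3p by -1.57 and miR-103-3p by -1.54 for both doses, all 4 called lower.

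**Figure D5:**
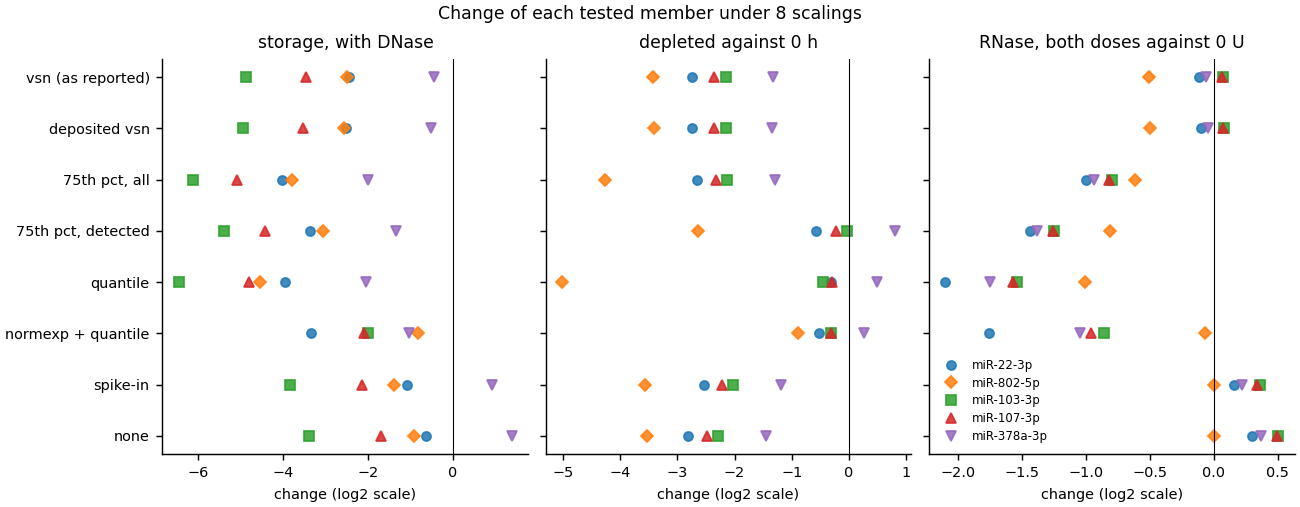
Change on the log2 scale (x axis) of each of the 5 tested members under 8 scalings (y axis) for storage with DNase, depleted RNA against 0 h, and both RNase doses against 0 U. Points are the difference of group means. Storage changes are below 0 except for miR-378a-3p with spike-in scaling and no normalisation, and the RNase changes of miR-22-3p, miR-103-3p, miR-107-3p and miR-378a-3p lie above or below 0 depending on the scaling. miR-802-5p was not detected in depleted RNA.

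On the glog2 scale the order of the 8 groups was therefore not the same for all members, and it depends on that scaling. For miR-22-3p the 0 h groups led (10.00 without and 9.86 with DNase), and the other 6 groups, from 8.08 to 7.13, each overlapped their neighbour in the order. For miR-103-3p and miR-107-3p the 0 h groups led (6.71 and 6.53, and 7.30 and 7.08), the 4 depleted groups followed (4.72 to 4.38, and 5.06 to 4.72), and the 96 h groups came last (1.94 and 1.66, and 3.87 and 3.62), with overlap within each block. The blocks did not overlap for miR-103-3p, whereas for miR-107-3p the 96 h arrays with DNase reached 4.66 and the depleted arrays began at 4.50. For miR-802-5p the 0 h groups, with 4.14 on average without DNase and no array under 3.50, stood apart from all others (1.67 to 0.39). For miR-378a-3p each of the first 6 groups overlapped the next, from 5.99 at 0 h with DNase to 4.65 in depleted RNA. Its 96 h group without DNase came last at 4.36, below depleted RNA with no overlap. Unscaled intensities of miR-378a-3p had the opposite order, 38.4 to 63.8 at 96 h without DNase and 16 to 18.7 in untreated depleted RNA. Those of miR-107-3p were 21.5 to 51.4 at 96 h with DNase and 16.4 to 19.7 in untreated depleted RNA. For miR-22-3p they were 306 to 850 and 92.8 to 112.

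The 3 miRNAs whose 8 group means followed each member most closely were named by Pearson correlation on the glog2 scale, as a description of points that share arrays and mice. They were miR-20a-5p (0.997), miR-26b-5p (0.996) and miR-194-5p (0.996) for miR-22-3p, and miR-23b-3p (0.998), miR-342-3p (0.995) and let-7d-5p (0.991) for miR-103-3p. For miR-107-3p they were miR-361-5p (0.998), miR-192-3p (0.997) and miR-30e-3p (0.996), and for miR-802-5p miR-30b-5p (0.994), miR-20b-5p (0.990) and miR-143-3p (0.990). For miR-33-5p they were miR-142a-3p (0.994), miR-144-3p (0.986) and miR-362-3p (0.986), but the values of miR-33-5p in 6 of the 8 groups, and those of miR-802-5p in 4, are of signals not detected. The closest to miR-378a-3p were miR-690 (0.927), miR-140-3p (0.880) and miR-3963 (0.866), lower values than for any other member. Between members, miR-103-3p and miR-107-3p gave 0.948 and miR-22-3p and miR-802-5p 0.978, whereas miR-103-3p and miR-802-5p gave 0.527.

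A list of 19 other miRNAs with roles in hepatic metabolism gave the wider setting. Of these 17 were tested, and miR-128-3p and miR-758-3p were detected on no array. During storage 16 were called lower and 1 higher in both DNase states. Over all 631, 21.6% were called lower with DNase and 23.0% without. The median change of the 17 was -3.08 with DNase and -2.97 without. miR-96-5p and miR-10b-5p were detected on 5 and 6 arrays, all at 0 h, and miR-144-3p on 7, all but 1 at 0 h. These passed the filter through 0 h, so their fall was built into their selection. miR-122-5p, the dominant hepatocyte miRNA and a regulator of cholesterol synthesis, changed by -3.08 with DNase and miR-34a-5p, which represses Sirt1, by -2.90. miR-144-3p, a repressor of Abca1, was detected on no 96 h array with DNase and was at least 13.6-fold lower. miR-370-3p was the exception, with a change of 4.33 with DNase and 5.06 without, and it was also the only one of the 17 called for both RNase doses (1.58). In depleted RNA 15 of the 17 were called lower, where 24.4% of the 631 were. Their median was -3.32, or -2.90 with the 7 undetected there at their bounds. Those 7 passed the filter through total RNA alone, so for them a fall in depleted RNA was built into their selection. miR-29b-3p was at least 107-fold lower there, the largest bound in the list, and miR-122-5p changed by -1.79.

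In base composition, the members with a sequence held 31.8% (miR-802-5p) to 47.8% G and C (miR-103-3p and miR-107-3p). The median over the miRNAs called lower during storage with DNase was 43.5% (119 of 136 with a sequence). Over those called higher it was 61.9% (311 of 381 with a sequence), and over all 631 it was 58.3% (526 with a sequence).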

How the data were processed

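Total RNA or RNA depleted of small RNAs from the livers of 3 mice was hybridised to 24 arrays in 8 groups of 3, grouped by the labels. Per the file headers, the authors used Agilent Feature Extraction 10.10.1.1, whose deposited output is fluorescence intensity that is background-subtracted and not normalised between arrays. The deposited table of all arrays holds log2 values after variance stabilising normalisation (vsn) by the authors. The genome build was not used for any value, and sequences are from RefSeq.

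Where a miRNA was flagged detected its total gene signal was used, and otherwise the sum of its probe signals. The total leaves out undetected probes, so shares of signal left were computed on the sum of both probes. The vsn was recomputed in Python 3.11.15 (numpy 2.4.6, pandas 2.3.3, scipy 1.17.1) and differed from the deposited values by 0.0956 (SD). The 631 miRNAs detected on at least 5 of 24 arrays were fitted with limma 3.58.1 (R 4.3.3), with 8 group means and a variance trend, and were called at an adjusted p under 0.05 and a change of at least 1. The scripts were tested on simulated data. The number of arrays limits the precision. Each mouse had a slide and a scan of its own, so an effect of the animal and one of the slide or scan cannot be told apart. The arrays of 1 mouse are paired by animal: their deviations from the group means correlated by 0.0914 on average, and those of different mice in different groups by -0.0449.

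The members and the lists were chosen with earlier results of these data known. The miRNAs named are the members, both lists, and the 3 other tested miRNAs most correlated with each member over the 8 group means. For mouse 9 the 2 RNase arrays were grouped by the descriptions, with the titles as an alternative. Alternatives were the deposited values, other scalings, background correction by normexp (on median spot signals, as the files used hold no mean signal), no filter, a replicate block, the compared groups alone, leaving out each mouse, means over probes and a rank test. The sum of both probes was added after seeing the data. All p-values are two-sided.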

Additional observations from a re-analysis of the deposited data

How the results depend on the processing

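Of 930 changes of single members under 17 alternatives, 825 stayed on the same side of the threshold, 46 lost the call, 33 gained it and 26 reversed. With the mouse as a replicate block the members called lower stayed at 4 with DNase and 5 without for storage, and 5 for depletion, and no call of a member changed in any comparison. The deposited values, no filter and the titles for mouse 9 moved no count of members by over 1.5 times. The cause of the changes below was not tested.

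With no normalisation the members called lower during storage were 2 with DNase (1 called higher, miR-378a-3p at 1.39) and 2 without, where miR-378a-3p was at 0.16, and with spike-in scaling 3 without DNase. The exact Wilcoxon-Mann-Whitney test, whose smallest adjusted p was 0.116 for storage with DNase, gave 0 for storage in both states, depletion, 96 h against depleted RNA and the DNase difference at 96 h, since 3 against 3 arrays cannot go below p = 0.1. For all 631 miRNAs the calls for storage with DNase were 136 lower and 381 higher as reported, 114 and 465 with spike-in scaling, 213 and 305 with quantile normalisation and 199 and 284 with the 75th percentile of all miRNAs. For both RNase doses they were 0 and 282 as reported and 165 and 186 with quantile normalisation.

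The 1 member called lower without DNase at 96 h became 0 with the 75th percentile of always-detected miRNAs, quantile normalisation, normexp and the compared groups alone. Leaving out each mouse gave 0 to 1 lower, and 0 to 1 higher (miR-22-3p at 1.03 without mouse 10).

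For depletion the 5 members called lower became 1 with the 75th percentile of always-detected miRNAs and with quantile normalisation, and 0 with normexp. The 1 left was miR-802-5p, whose fall the filter favours. miR-378a-3p was then at 0.80, 0.49 and 0.26.

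For 96 h against depleted RNA the 2 members called lower became 4 with the 75th percentile of always-detected miRNAs, quantile normalisation and normexp, 1 with spike-in scaling and the compared groups alone, and 0 with no normalisation. Leaving out each mouse gave 1 to 2. Those called higher, 0 as reported, were 3 with spike-in scaling and with no normalisation, 2 with means over probes, 1 (miR-802-5p) with both probes summed, a setting chosen after seeing the data, and 0 to 1 leaving out each mouse. miR-22-3p was at -2.78, -1.36, -3.62 and -2.82 with the 75th percentile of always-detected and of all miRNAs, quantile normalisation and normexp, miR-378a-3p at -2.13, -2.52 and -1.29 with always-detected miRNAs, quantile normalisation and normexp, and miR-107-3p at 0.07 with spike-in scaling and 0.80 with no normalisation.

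For RNase the members called lower, 0 as reported, were 4 for the lower dose, the higher dose and both with the 75th percentile of always-detected miRNAs, 3, 4 and 4 with quantile normalisation, 1, 3 and 2 with normexp, and 1 for the higher dose with the 75th percentile of all miRNAs. With the 75th percentile of always-detected miRNAs, miR-103-3p was at -1.14, -1.35 and -1.25 and miR-107-3p at -1.14, -1.38 and -1.26 for the lower dose, the higher dose and both. With quantile normalisation miR-103-3p was at -1.71 (higher dose) and -1.54 (both) and miR-107-3p at -1.40, -1.75 and -1.57, and with normexp miR-107-3p was at -1.06 for the higher dose.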
